A study of Caenorhabditis elegans with 12 samples.

Results

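The genes described here were 35 *C. elegans* genes for maternal RNA-binding proteins and germ granule components, chosen by name and read in FACS-isolated cells of the proximal somatic gonad (PSG). All 35 were present among the 46687 genes of the count table. By role they were 5 distal germ line and stem cell regulators (*fbf-1*, *fbf-2*, *sygl-1*, *lst-1* and *puf-8*), 4 regulators of meiotic entry and germ line development (*gld-1*, *gld-2*, *gld-3* and *nos-3*), 6 oocyte PUF and TRIM-NHL genes (*puf-3*, *puf-5*, *puf-6*, *puf-7*, *puf-11* and *lin-41*), 10 maternal regulators with CCCH zinc fingers, KH or RRM domains or of the Nanos family (*oma-1*, *oma-2*, *pos-1*, *mex-1*, *mex-3*, *mex-5*, *mex-6*, *pie-1*, *spn-4* and *nos-2*), 4 genes for cytoplasmic mRNP and Y-box proteins (*cgh-1*, *car-1*, *cey-2* and *cey-3*) and 6 P granule genes (*pgl-1*, *pgl-3*, *glh-1*, *glh-2*, *glh-4* and *deps-1*). By the deposited coordinates, 13 of them lie on chromosome I, 10 on II, 2 on III, 6 on IV and 4 on V (WBcel235).

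As background, oocytes of *C. elegans* stop transcription before they mature, and the early embryo runs on the mRNAs they stored. RNA-binding proteins that bind their 3′ untranslated regions control when each one is translated, from the stem cells at the distal tip of the gonad, through meiosis, to the oocyte and the first cleavages. P granules are the perinuclear RNA and protein condensates of the germ line, and the PSG, the spermatheca and uterus, is the somatic tissue through which each oocyte passes as it is ovulated and fertilized.

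Cells were sorted from *daf-2(rf)* hermaphrodites, which carry the reduction-of-function allele *e1370* of the insulin/IGF-1 receptor gene, and from *daf-16(0); daf-2(rf)* hermaphrodites (hereafter the double mutant), which carry in addition the null allele *mu86* of the FOXO transcription factor gene *daf-16*. Worms were untreated and taken on day 1 (D1) or day 7 (D7) of adulthood, with 3 libraries for each of the 4 groups of genotype and day. All groups shared *daf-2(rf)* and the transgene *Pfos-1a::gfp*, whose promoter marks PSG cells, and no wild-type group is analysed here. Each library came from cells of many animals dissociated together, and D7 worms had been washed free of eggs and larvae during aging. The study's methods describe the 3 libraries of a group as biological replicates. Neither they nor the labels say that these came from separate cultures, so p-values measure the spread between these libraries. In RNA of sorted cells, fewer cells of a type and less RNA per cell cannot be told apart.

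Between 6183054 and 16407304 reads were counted per library, and 1 read was worth 0.0251 to 0.373 CPM (reads scaled to a common library size) after TMM scaling over the 12 libraries. TMM factors ran from 0.385 to 3.22. A fixed set of 10 abundant genes, ranked on the pooled reads of the 12 libraries, took 27.3% to 73.5% of the reads of a library. *daf-16* itself had 351, 366 and 451 reads in *daf-2(rf)* on D1 against 20, 48 and 106 in the double mutant, and 498, 1102 and 472 against 121, 111 and 139 on D7, lower in every double-mutant library of either day than in every *daf-2(rf)* library of that day. Of 11 PSG markers 10 were matched, and their summed level was 1042 to 2921 CPM in the 12 libraries. Sperm markers summed to 0.313 to 17.1 CPM, early zygotic embryo markers to 1.21 to 9.65 CPM, and *ssp-9* was at 0 reads in all 12 libraries. Replicate 2 of *daf-2(rf)* on D7 stood apart from its group for these genes, and results that rest on it are given with and without it.

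The 35 genes together took 0.00667% to 0.0622% of the reads of a library, so they were a small component of the sorted RNA. *cgh-1*, the DDX6-family RNA helicase of storage mRNPs, had the highest level per length with a mean of 22.1 FPKM over the 12 libraries. *car-1*, an LSM14-family partner of CGH-1, followed with 14.96 FPKM, and *oma-1*, a CCCH zinc finger gene needed for oocyte maturation, with 13.1 FPKM. *cey-2*, a germ line Y-box (cold-shock domain) gene, came to 7.36 FPKM and *gld-2*, the cytoplasmic poly(A) polymerase, to 5.92 FPKM, while *fbf-1*, a PUF gene of the stem cell region, was the lowest at 0.101 FPKM. *cgh-1*, *gld-2*, *car-1* and *oma-1* held 64.4% of all reads on the 35 genes, between 40.4% and 80.7% in single libraries. The order of levels within groups was not fixed: by mean FPKM *oma-1* ranked 1 of 35 in the double mutant on D1 and 5 in *daf-2(rf)* on D7, although its libraries overlapped those of *cgh-1* in the former group (33.3, 18.3 and 42.3 FPKM against 31.8, 30.3 and 26.0).

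Summed over the 35 genes, the level was 136, 102 and 132 CPM in the 3 *daf-2(rf)* libraries on D1 and 362, 326 and 325 CPM in the double mutant on D1. On D7 it was 206, 195 and 177 CPM in *daf-2(rf)* and 137, 163 and 122.5 CPM in the double mutant. After TMM scaling the double mutant on D1 was the high group, with its lowest library above the highest library of each of the other 3 groups. This order depends on the scaling. As a share of all reads of a library, without TMM, the 35 genes took 0.0157%, 0.0255% and 0.0125% in the double mutant on D1 and 0.0144%, 0.00667% and 0.0122% in *daf-2(rf)* on D1. The shares were 0.0194%, 0.0622% and 0.0382% in *daf-2(rf)* on D7 and 0.0191%, 0.0189% and 0.0135% in the double mutant on D7, so that on this scale *daf-2(rf)* on D7 had the highest shares and overlapped the double mutant on D1. The median over the 35 genes of their mean TMM-scaled level was 4.56 CPM in the double mutant on D1, against 0.851 CPM in *daf-2(rf)* on D1, 1.24 CPM in *daf-2(rf)* on D7 and 1.004 CPM in the double mutant on D7.

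**Figure D1:**
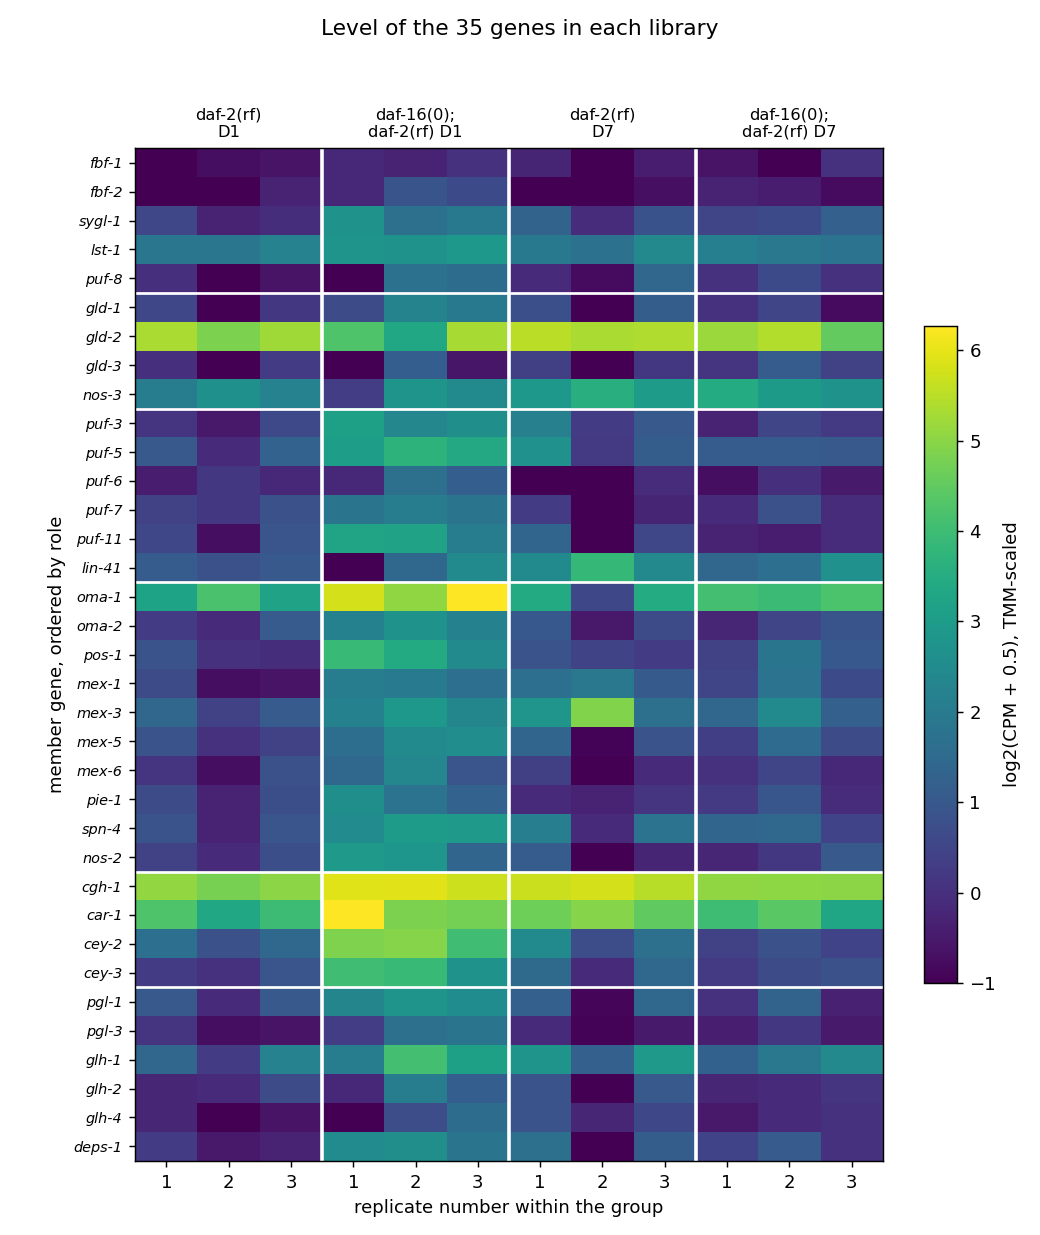
Level of each of the 35 genes (rows, ordered by role and separated by white lines) in each of the 12 libraries (columns, by group and replicate number), as log2(CPM + 0.5) after TMM scaling. The columns of the double mutant on D1 are brighter across most rows, and replicate 2 of *daf-2(rf)* on D7 is bright for *mex-3* and *lin-41* and dark for 11 genes with no reads.

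The first comparison was between the genotypes on D1, and asked whether the RNA of these regulators depended on *daf-16* in young adults with reduced insulin signaling. A gene was called when edgeR's quasi-likelihood test gave an adjusted p under 0.05 (Benjamini-Hochberg over all genes tested) and a log2 fold change of 1 or more in either direction, and it was tested when more than 10 reads were counted in each replicate of at least 1 group. On D1, 13 of the 35 genes were called and each of the 13 was lower in *daf-2(rf)*: *cey-3*, *pos-1*, *cey-2*, *deps-1*, *puf-3*, *puf-11*, *puf-5*, *sygl-1*, *spn-4*, *nos-2*, *oma-2*, *oma-1* and *pgl-1*. None of the 35 was called higher, and 2.26% of all 6430 genes tested were called lower. The filter bears on this count. Of the 35 genes 21 were tested, 13 of which passed through the double mutant alone, 2 through *daf-2(rf)* alone and 6 through both. Of the 13 called genes 11 passed through the double mutant alone. Each of these 11 had 10 or fewer reads in at least 1 *daf-2(rf)* library, so it was tested only through the group where it was high. *cey-2* and *oma-1* passed in both groups.

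Without any filter on values, the mean level was lower in *daf-2(rf)* for 33 of the 35 genes on D1, the exceptions being *gld-2* and *nos-3*, against 49.9% of all genes with reads. For 26 of the 35 every *daf-2(rf)* library was below every double-mutant library, and for none was it the reverse, where 8.58% of all genes with reads were separated in that direction. Some of the 26 rested on few reads and overlapped in raw counts, as 1 read was worth 0.373 CPM in replicate 1 of the double mutant. *fbf-1* had 0, 1 and 2 reads against 1, 3 and 3, and *fbf-2* 0, 0 and 4 against 1, 13 and 6. *pgl-3* had 5, 1 and 2 against 2, 26 and 17, and *gld-1* 8, 0 and 8 against 3, 41 and 19. The groups overlapped for *gld-2*, *gld-3*, *nos-3*, *puf-6*, *puf-8*, *lin-41*, *glh-1*, *glh-2* and *glh-4*. This count depends on the scaling. On reads scaled by library totals without TMM, which add 0.77 to every log2 ratio of this comparison, 13 of the 35 were separated downward and 1 (*gld-2*) upward, beside 2.66% of all genes downward.

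**Figure D2:**
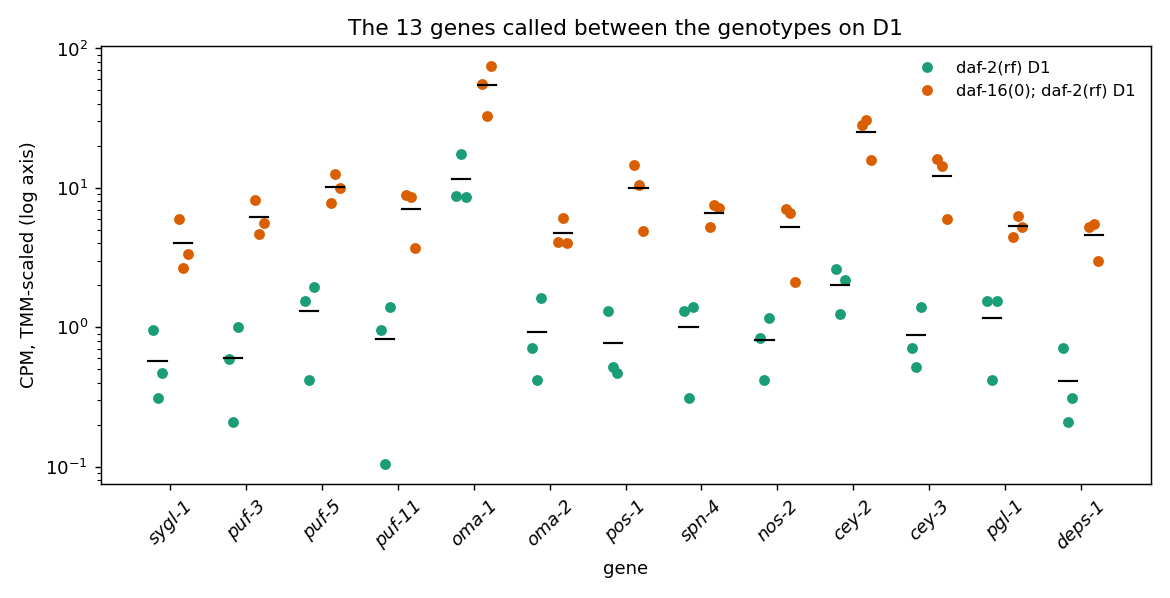
TMM-scaled CPM (log axis) of the 13 genes called between the genotypes on D1, with 1 point per library (green, *daf-2(rf)*; orange, double mutant) and a bar at the mean of 3. For each gene the highest green point lies below the lowest orange one, most narrowly for *nos-2* (1.17 against 2.11 CPM).

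The Y-box genes *cey-2* and *cey-3*, whose cold-shock domain proteins coat stored mRNAs in the germ line, showed 2 of the 3 largest differences. *cey-2* was at 2.62, 1.25 and 2.18 CPM in *daf-2(rf)* and at 28.4, 30.6 and 16.0 CPM in the double mutant on D1. *cey-3* was at 0.715, 0.522 and 1.4 CPM against 16.1, 14.4 and 5.96 CPM. The groups of both genes were separate, and the lowest double-mutant library was 6.09-fold above the highest *daf-2(rf)* library for *cey-2* and 4.26-fold for *cey-3*. The log2 fold change was -3.69 (SE 0.48, adjusted p = 0.0202) for *cey-2* and -3.79 (SE 0.59, adjusted p = 0.0202) for *cey-3*, by the same edgeR test. The genes lie 46.6 kb apart on opposite strands of chromosome I (*cey-3* at 5571784 to 5572951, *cey-2* at 5619567 to 5620668). How the counting treated reads that match both of a related pair is not given in the sources used here, so the split between them is uncertain. Their sum, which such a split leaves unchanged only if each shared read was counted once, was 3.34, 1.78 and 3.58 CPM in *daf-2(rf)* and 44.4, 45.1 and 21.9 CPM in the double mutant.

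The other cytoplasmic mRNP genes showed smaller differences that were not called. *cgh-1* was at 33.4, 27.2 and 31.3 CPM in *daf-2(rf)* and 60.1, 61.5 and 52.5 CPM in the double mutant, a log2 fold change of -0.99 (SE 0.36, adjusted p = 0.138). *car-1* was at 18.7, 9.82 and 15.2 CPM against 76.5, 28.3 and 26.1 CPM, a log2 fold change of -1.64 (SE 0.51, adjusted p = 0.102). For both genes every *daf-2(rf)* library was the lower, and replicate 1 of the double mutant lay far above the others for *car-1*. Both had over 10 reads in all 12 libraries, as did *cey-2*, *oma-1*, *gld-2* and *lst-1*.

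Among the oocyte PUF genes, whose products bind the 3′ untranslated regions of maternal mRNAs, 3 of 5 were called. *puf-3* was at 0.596, 0.209 and 1.01 CPM in *daf-2(rf)* on D1 and 8.21, 4.64 and 5.61 CPM in the double mutant, with a log2 fold change of -3.30 (SE 0.59, adjusted p = 0.0224). *puf-11*, a close relative of *puf-3* that acts with it in oocytes and embryos, was at 0.953, 0.104 and 1.4 CPM against 8.96, 8.66 and 3.68 CPM, with a log2 fold change of -3.12 (SE 0.71, adjusted p = 0.0407). *puf-5*, which is needed for oocyte formation, was at 1.55, 0.418 and 1.94 CPM against 7.84, 12.6 and 9.999 CPM, with a log2 fold change of -3.01 (SE 0.56, adjusted p = 0.0256). Replicate 2 of *daf-2(rf)* was the lowest library for each of the 3, and no group overlapped. Summed, *puf-3* and *puf-11* came to 1.55, 0.313 and 2.41 CPM in *daf-2(rf)* and 17.2, 13.3 and 9.30 CPM in the double mutant. *puf-3* (IV, 13510306 to 13512162, minus strand) lies within *Y45F10A.3*, a protein-coding gene of the other strand with 486 reads over the 12 libraries, and whether the counting used strand is not given in the sources used here.

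*puf-6* and *puf-7*, near-identical genes that act with *puf-5*, had too few reads to be tested on D1. *puf-6* was at 0.238, 0.627 and 0.389 CPM in *daf-2(rf)* and 0.373, 2.68 and 1.75 CPM in the double mutant, which overlapped. *puf-7* was at 0.834, 0.627 and 1.24 CPM against 2.99, 3.61 and 2.98 CPM, without overlap. Their sum did not overlap either, at 1.07, 1.25 and 1.63 CPM against 3.36, 6.29 and 4.74 CPM. *lin-41*, a TRIM-NHL gene that holds oocytes in meiotic prophase and also acts in larval somatic cells, overlapped between the genotypes (1.67, 1.25 and 1.56 CPM against 0, 2.27 and 5.09 CPM) and was not called, with a log2 fold change of -0.88 (SE 0.73, adjusted p = 0.467).

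Of the 10 CCCH, KH, RRM and Nanos genes 5 were called. *pos-1*, a CCCH gene that controls maternal mRNAs such as *glp-1* in posterior cells of the embryo, was at 1.31, 0.522 and 0.467 CPM in *daf-2(rf)* and 14.6, 10.4 and 4.91 CPM in the double mutant. Its log2 fold change was -3.77 (SE 0.61, adjusted p = 0.0202), the second largest of the tested genes. *spn-4*, an RRM gene with roles in spindle orientation and cell fate of the early embryo, was at 1.31, 0.313 and 1.4 CPM against 5.23, 7.53 and 7.19 CPM. Its log2 fold change was -2.77 (SE 0.56, adjusted p = 0.0297). *nos-2*, a Nanos gene whose RNA is maternal and whose protein acts in primordial germ cells, was at 0.834, 0.418 and 1.17 CPM against 7.09, 6.60 and 2.11 CPM. Its log2 fold change was -2.72 (SE 0.61, adjusted p = 0.0407), and *nos-2* (II, 7065637 to 7067050, plus strand) lies within the minus-strand gene *him-14*, which had 51 reads in all.

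The redundant oocyte maturation genes *oma-1* and *oma-2* were both called. *oma-1* was at 8.82, 17.6 and 8.56 CPM in *daf-2(rf)* and 55.3, 32.6 and 75.1 CPM in the double mutant, a log2 fold change of -2.27 (SE 0.47, adjusted p = 0.0318). *oma-2* was at 0.715, 0.418 and 1.63 CPM against 4.11, 6.09 and 4.03 CPM, a log2 fold change of -2.38 (SE 0.56, adjusted p = 0.0462). Both pairs of groups were separate, although replicate 2 of *daf-2(rf)* was the highest of its group for *oma-1* and the lowest for *oma-2*. *oma-1* made up most of their sum, which was 9.53, 18.1 and 10.2 CPM in *daf-2(rf)* and 59.4, 38.7 and 79.1 CPM in the double mutant.

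The 5 remaining genes of this role were not called on D1, and in all 5 every *daf-2(rf)* library was below every double-mutant library. *mex-3*, a KH gene that keeps *pal-1* mRNA silent in the anterior embryo, had a log2 fold change of -1.83 (SE 0.50, adjusted p = 0.0713). *pie-1*, a CCCH gene that blocks transcription in germ line blastomeres, had one of -1.98 (SE 0.61, adjusted p = 0.101). *mex-1*, a CCCH gene needed to segregate P granules, had 9, 1 and 2 reads in *daf-2(rf)* and 10, 33 and 15 in the double mutant, and did not pass the filter. The polarity genes *mex-5* and *mex-6* were also below the filter, *mex-5* at 1.31, 0.522 and 0.856 CPM in *daf-2(rf)* and 2.61, 5.05 and 5.44 CPM in the double mutant. *mex-6* was at 0.596, 0.104 and 1.24 CPM against 2.24, 4.64 and 1.403 CPM, and its groups were separated by a factor of 1.13 only.

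Among the P granule genes, *deps-1*, which promotes P granule assembly, had the fourth largest difference of the tested genes. It was at 0.715, 0.209 and 0.311 CPM in *daf-2(rf)* and 5.23, 5.47 and 2.98 CPM in the double mutant, with a log2 fold change of -3.53 (SE 0.59, adjusted p = 0.0202). *pgl-1*, which encodes a constitutive P granule scaffold, was at 1.55, 0.418 and 1.56 CPM against 4.48, 6.29 and 5.26 CPM, with a log2 fold change of -2.25 (SE 0.54, adjusted p = 0.0499). The groups of both genes were separate. *pgl-3*, its relative, had 5, 1 and 2 reads in *daf-2(rf)* and 2, 26 and 17 in the double mutant, 0.596, 0.104 and 0.156 CPM against 0.747, 2.68 and 2.98 CPM, and did not pass the filter. The Vasa-like helicase genes overlapped between the genotypes: *glh-1* was at 2.14, 0.731 and 4.12 CPM against 3.73, 16.5 and 8.25 CPM. *glh-2* was at 0.357, 0.418 and 1.09 CPM against 0.373, 3.61 and 1.75 CPM. *glh-4* had 0 to 3 reads in *daf-2(rf)* and 0 to 14 in the double mutant.

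In the distal germ line, *sygl-1* and *lst-1* are targets of GLP-1/Notch signaling that keep stem cells undifferentiated together with the PUF proteins FBF-1 and FBF-2. *sygl-1* was at 0.953, 0.313 and 0.467 CPM in *daf-2(rf)* and 5.97, 2.68 and 3.33 CPM in the double mutant, a log2 fold change of -2.79 (SE 0.58, adjusted p = 0.0318). *lst-1* was at 3.10, 3.13 and 4.12 CPM against 6.35, 6.19 and 6.84 CPM, a log2 fold change of -0.96 (SE 0.40, adjusted p = 0.173). Both pairs of groups were separate, but *lst-1* did not pass the test. *fbf-1* had at most 3 reads and *fbf-2* at most 13 in any library on D1. *fbf-1* was at 0, 0.104 and 0.156 CPM in *daf-2(rf)* and 0.373, 0.309 and 0.526 CPM in the double mutant, and *fbf-2*, 7.85 kb away on chromosome II, at 0, 0 and 0.311 CPM against 0.373, 1.34 and 1.05 CPM. Neither gene passed the filter on low counts. *puf-8*, another PUF gene of the distal germ line, had 0 to 4 reads in *daf-2(rf)* and 0 to 27 in the double mutant, and overlapped.

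Among the 4 genes of meiotic entry and germ line development, *gld-2* and *nos-3* did not have a lower mean in *daf-2(rf)*. *gld-2* had a log2 fold change of 0.60 (SE 0.50, adjusted p = 0.469) and *nos-3*, a Nanos gene that promotes meiotic entry, one of 0.02 (SE 0.59, adjusted p = 0.989). *gld-2* was at 40.2, 28.1 and 37.4 CPM in *daf-2(rf)* and 18.7, 9.49 and 39.5 CPM in the double mutant, which overlapped. *gld-1*, a KH-domain repressor of translation in early meiosis, had 8, 0 and 8 reads in *daf-2(rf)* and 3, 41 and 19 in the double mutant, and *gld-3*, which works with GLD-2, had 0 to 9 and 0 to 17. Both were below the filter. Summed by role, these 4 genes were at 45.3, 33.8 and 42.9 CPM in *daf-2(rf)* and 20.5, 21.8 and 48.1 CPM in the double mutant, most of it *gld-2*, whereas the 10 CCCH, KH, RRM and Nanos genes were at 19.2, 21.2 and 18.3 CPM against 105, 86.0 and 109 CPM.

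The D1 calls rested on small groups. Leaving out *daf-2(rf)* replicate 1, 2 or 3 left 2, 0 and 0 of the 35 genes called (16, 18 and 16 at an unadjusted p under 0.05), when 16, 6 and 2 of all genes tested were called, and leaving out replicate 1, 2 or 3 of the double mutant gave 11, 9 and 6 calls, of which 8, 9 and 6 were among the original 13, when 176, 474 and 127 of all genes tested were called (2.60%, 7.35% and 1.95%). With all 6 libraries, 18 of the 21 genes tested had an unadjusted p under 0.05 in the edgeR test, beside 1601 of all 6430. Such counts over all genes were not taken with a library left out. The fitted differences kept their sign for each of the 13 genes. *pos-1* and *cey-2* remained called in 4 of the 6 fits with a library left out, and *puf-11*, *oma-2* and *pgl-1* in none.

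Other germ line genes and markers of other cells were read alongside, where edgeR called 3.51% and DESeq2 11.8% of all genes tested on D1. By edgeR 1601 of all 6430 had an unadjusted p under 0.05. Of 17 other germ granule and small RNA genes 14 were matched, 6 were tested on D1 and 0 were called by edgeR or DESeq2 (2 at an unadjusted p under 0.05, 3 of 6 with a negative log2 fold change, median 0.34, beside -0.02 over all genes tested). Of 18 other germ line translation regulators 17 were matched and 10 tested, 9 with a negative log2 fold change (median -0.97), of which *rnp-8* was called by edgeR and 2 genes by DESeq2. Of 14 eggshell and yolk uptake genes 7 were tested, all 7 with a negative log2 fold change (median -2.24), and *rme-2*, the oocyte yolk receptor, was called by edgeR and 3 genes by DESeq2. Of 22 meiotic chromosome genes only 2 were tested on D1, with 0 called by edgeR or DESeq2 and 0 at an unadjusted p under 0.05, and their summed level was 17.4, 21.6 and 19.4 CPM in *daf-2(rf)* and 19.4, 35.1 and 30.5 CPM in the double mutant. Intestinal markers also moved with the genotype on D1: 7 of 9 were tested, all 7 with a negative log2 fold change, 4 were called lower in *daf-2(rf)*, and their summed level was 468, 677 and 419 CPM against 2034, 481 and 1502 CPM, which overlapped. Of 6 neuron markers 4 were tested, with 0 called by edgeR, 2 by DESeq2 and 2 at an unadjusted p under 0.05, and their summed level was 89.7, 138 and 94.8 CPM against 404, 133 and 241 CPM. The 10 PSG markers were all tested, with 0 called by edgeR, 1 by DESeq2 and 2 at an unadjusted p under 0.05, and sums of 2472, 2260 and 2467 CPM against 1530, 1306 and 2267 CPM. Sperm markers summed to 13.8, 0.313 and 12.4 CPM against 14.6, 17.1 and 9.30 CPM, and early zygotic embryo markers to 3.69, 4.28 and 3.66 CPM against 3.36, 9.18 and 9.65 CPM, with *med-1* and *tbx-37* at 0 reads in all 6 libraries. Hypodermis markers summed to 12.9, 4.39 and 4.28 CPM against 40.3, 29.1 and 8.60 CPM, with 1 of 4 tested, 0 called by edgeR or DESeq2 and 1 at an unadjusted p under 0.05. Of 6 gonadal sheath markers 5 were tested, 4 of them with a positive log2 fold change, and *mup-2* was called lower in *daf-2(rf)*, with a log2 fold change of -2.14, while the sums were 61.6, 84.7 and 93.9 CPM against 151, 81.4 and 103 CPM. Of 4 body-wall muscle markers 3 were tested, with 0 called by edgeR or DESeq2 and 0 at an unadjusted p under 0.05, and sums of 77.2, 175 and 95.3 CPM against 175, 205 and 161 CPM. The part of other cells in the D1 difference was not tested.

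On D7 the same comparison called none of the 35 genes. Of the 20 tested, 16 passed the filter in both groups and 0 were called by edgeR or by DESeq2. In the edgeR test 3 had an unadjusted p under 0.05 (*cgh-1*, *cey-2* and *mex-3*), beside 1495 of all 7933 genes tested. Of all genes tested 1.15% were called by edgeR and 8.85% by DESeq2. *mex-3* was at 6.46, 29.1 and 2.71 CPM in *daf-2(rf)* and 2.12, 5.03 and 1.85 CPM in the double mutant. Its log2 fold change was 2.08 (SE 0.83, adjusted p = 0.228), and 0.58 without replicate 2 of *daf-2(rf)*. Over all 35 the mean was lower in *daf-2(rf)* for 13, against 58.5% of all genes with reads. *cgh-1* was at 50.8, 54.8 and 44.4 CPM in *daf-2(rf)* and 32.7, 32.4 and 31.6 CPM in the double mutant, with a log2 fold change of 0.63 (SE 0.24, adjusted p = 0.214). *car-1* was at 24.6, 30.6 and 21.8 CPM against 15.6, 20.6 and 9.20 CPM, with a log2 fold change of 0.76 (SE 0.34, adjusted p = 0.27). These were the 2 genes of the 35 whose *daf-2(rf)* libraries all lay above the double mutant, where 5.44% of all genes with reads were separated in that direction. On library totals without TMM, which add 0.62 to every log2 ratio here, 6 of the 35 were (*puf-3*, *mex-3*, *cgh-1*, *cey-2*, *glh-1* and *glh-4*), beside 6.19% of all genes, and neither *car-1* nor *oma-1* was separate. *oma-1* was the reverse after TMM scaling, at 10.5, 1.004 and 10.5 CPM against 16.5, 15.03 and 17.9 CPM, with a log2 fold change of -1.17 (SE 0.70, adjusted p = 0.403). Of the intestinal markers 7 were tested on D7, all 7 with a negative log2 fold change, *act-5* was called lower in *daf-2(rf)*, and the sums were 57.7, 38.9 and 24.0 CPM against 1160, 127 and 387 CPM, which did not overlap.

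**Figure D3:**
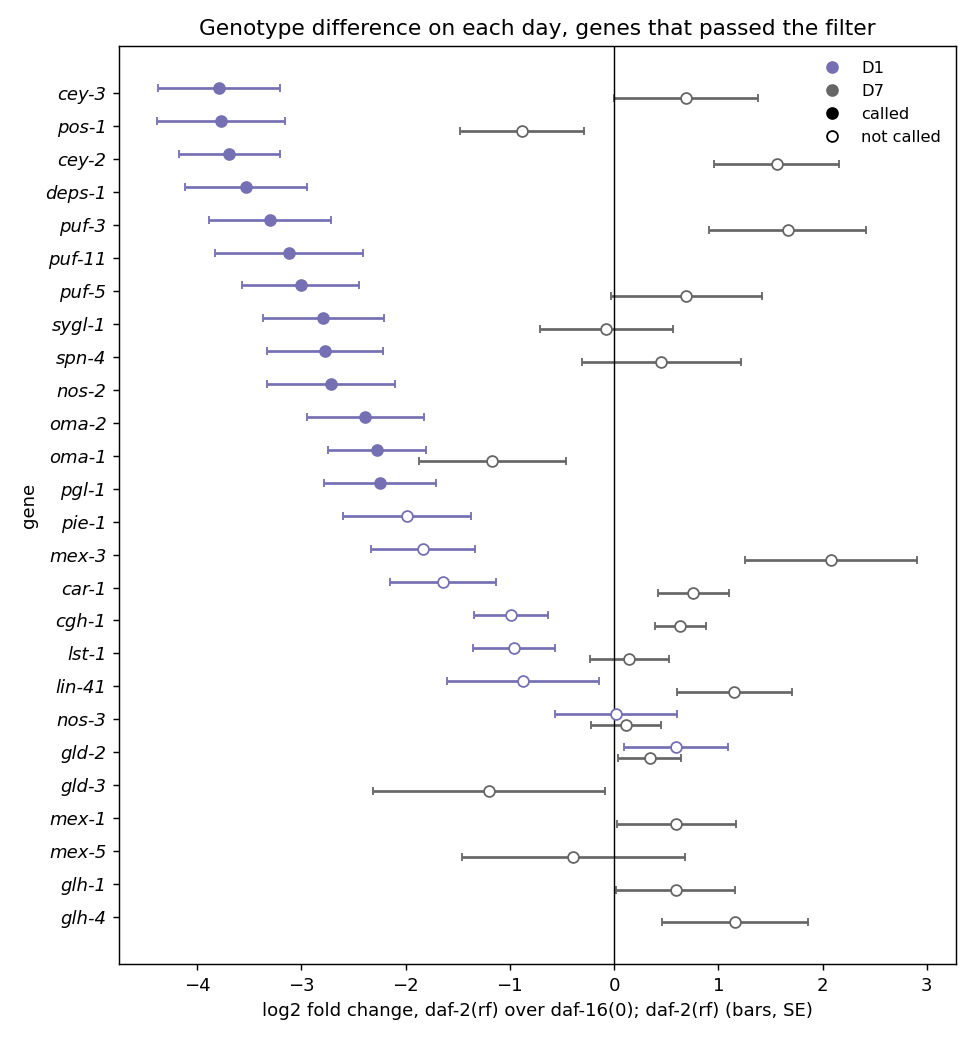
Log2 fold change of *daf-2(rf)* over the double mutant, with its standard error as a bar, for the 26 genes tested on at least 1 of the days (purple, D1; grey, D7; filled, called; open, not called). On D1 the 13 filled points lie between -3.79 and -2.25, and on D7 all points are open and lie between -1.20 and 2.08.

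Most of the genes called on D1 were at low levels in both genotypes on D7. *cey-2* was at 5.06, 1.16 and 2.68 CPM in *daf-2(rf)* and 0.827, 1.24 and 0.890 CPM in the double mutant on D7, with a log2 fold change of 1.56 (SE 0.60, adjusted p = 0.217). *cey-3* was at 2.36, 0.427 and 2.18 CPM against 0.672, 1.12 and 1.26 CPM. *puf-3* was at 4.02, 0.703 and 1.53 CPM against 0.310, 0.932 and 0.668 CPM, and *puf-5* at 5.85, 0.678 and 1.70 CPM against 1.65, 1.68 and 1.56 CPM. The groups of all 4 genes overlapped, and for each of them replicate 2 of *daf-2(rf)* was the lowest library of its group. *pos-1* was at 1.31, 0.904 and 0.734 CPM against 0.827, 3.04 and 1.48 CPM, *spn-4* at 3.84, 0.427 and 2.91 CPM against 2.07, 2.17 and 0.890 CPM, and *sygl-1* at 2.01, 0.452 and 1.27 CPM against 0.931, 1.06 and 1.85 CPM. These overlapped too. *lst-1*, at 3.32, 2.84 and 4.83 CPM against 3.88, 3.23 and 2.89 CPM, differed by a log2 fold change of 0.15 (SE 0.38, adjusted p = 0.857).

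The remaining genes called on D1 had few reads on D7. *puf-11* was at 2.10, 0 and 0.960 CPM in *daf-2(rf)* and 0.310, 0.248 and 0.445 CPM in the double mutant, *oma-2* at 1.48, 0.201 and 1.10 CPM against 0.362, 0.932 and 1.34 CPM, and *nos-2* at 1.66, 0 and 0.339 CPM against 0.362, 0.621 and 1.56 CPM. *pgl-1* was at 1.83, 0.0502 and 2.18 CPM against 0.517, 1.99 and 0.297 CPM and *deps-1* at 2.71, 0 and 1.72 CPM against 0.879, 1.62 and 0.519 CPM. These 5 genes did not pass the filter in either group on D7, and their groups overlapped. Of the paired genes not called in any comparison, *puf-6* had 0, 0 and 16 reads in *daf-2(rf)* and 2, 8 and 3 in the double mutant, and *puf-7* had 8, 0 and 12 against 8, 20 and 6. *mex-5* had 24, 1 and 46 reads against 15, 39 and 15, and *mex-6* had 9, 0 and 15 against 10, 15 and 5. *fbf-1* and *fbf-2* had 0 to 9 reads in each of the 6 libraries and *pgl-3* 1 to 10, while *glh-1* had 72, 73 and 248 reads against 37, 53 and 66, and *glh-2* 15, 0 and 55 against 7, 7 and 8.

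The second axis of the design was age. In the double mutant 5 of the 35 genes were called between D7 and D1, all lower on D7: *cey-2*, *puf-11*, *cey-3*, *puf-3* and *puf-5*. None was called higher, and 0.385% of all 7541 genes tested were called lower. Of the 25 genes tested, 12 passed the filter on both days, 7 on D1 alone and 6 on D7 alone. *cey-2*, *cey-3* and *puf-5* passed on both days, whereas *puf-3* and *puf-11* passed through D1 alone. The D1 libraries of the double mutant are the same that gave the D1 genotype difference, so the comparisons share them and their values stand side by side.

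*cey-2* went from 28.4, 30.6 and 16.0 CPM on D1 to 0.827, 1.24 and 0.890 CPM on D7 in the double mutant, a log2 fold change of -4.67 (SE 0.47, adjusted p = 0.0141). That is a 25.4-fold lower fitted level, the largest difference of any of the 35 genes in the 4 comparisons of groups. *puf-11*, from 8.96, 8.66 and 3.68 to 0.310, 0.248 and 0.445 CPM, had a log2 fold change of -4.39 (SE 0.58, adjusted p = 0.0299). *cey-3*, from 16.1, 14.4 and 5.96 to 0.672, 1.12 and 1.26 CPM, had one of -3.59 (SE 0.54, adjusted p = 0.0356). For all 3 genes the highest D7 library was below the lowest D1 library. *puf-3*, from 8.21, 4.64 and 5.61 to 0.310, 0.932 and 0.668 CPM, had a log2 fold change of -3.26 (SE 0.56, adjusted p = 0.0407), and *puf-5*, from 7.84, 12.6 and 9.999 to 1.65, 1.68 and 1.56 CPM, had one of -2.66 (SE 0.41, adjusted p = 0.0356). Both were separate between the days.

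Over all 35 genes without a filter, the mean was lower on D7 for 31 in the double mutant, against 40.0% of all genes with reads. For 23 every D7 library was below every D1 library and for none above, where 9.03% of all genes with reads were separated downward. Among the 23, *fbf-2*, *gld-1* and *pgl-3* had as few as 1, 3 and 2 reads in a D1 library. Here too the scaling mattered: scaling by library totals without TMM adds 1.26 to every log2 ratio of this comparison, and on that scale 7 of the 35 were separated downward and 3 (*gld-2*, *nos-3* and *lin-41*) upward, beside 1.08% of all genes downward. *oma-1*, from 55.3, 32.6 and 75.1 to 16.5, 15.03 and 17.9 CPM, was separate but not called, with a log2 fold change of -1.73 (SE 0.42, adjusted p = 0.0601). The genes with a higher fitted value on D7 were *gld-2*, *gld-3*, *nos-3* and *lin-41*, with log2 fold changes of 0.56, 0.26, 0.88 and 0.42, and none of the 4 was called. Of 14 eggshell and yolk uptake genes 8 were tested, 6 with a negative and 2 with a positive log2 fold change (median -2.64). The eggshell genes *cpg-1*, *cpg-2* and *cbd-1* were called lower on D7. Negative values were found for 9 of 10 other germ line translation regulators tested, 4 of 7 other germ granule and small RNA genes and 1 of 4 meiotic chromosome genes. In these 3 lists 0 genes were called. Some markers of other cells differed in the same direction and others did not. The hypodermis markers summed to 40.3, 29.1 and 8.60 CPM on D1 and 1.86, 0.808 and 1.78 CPM on D7, with *col-19*, the 1 of 4 tested, called lower. Sperm markers summed to 14.6, 17.1 and 9.30 CPM and 2.84, 1.12 and 2.97 CPM, with *msp-19*, the 1 of 11 tested, called lower. Of 7 intestinal markers tested 6 had a negative log2 fold change and 0 were called, with sums of 2034, 481 and 1502 CPM on D1 and 1160, 127 and 387 CPM on D7, which overlapped. Coelomocyte markers went the other way without overlap, with sums of 0.373, 1.96 and 1.403 CPM on D1 and 4.45, 54.7 and 170 CPM on D7. The 1 of 2 coelomocyte markers tested had a log2 fold change of 5.74 and was not called. Positive log2 fold changes were found for 6 of 9 PSG and 3 of 5 gonadal sheath markers tested. They were found for 2 of 4 neuron and 1 of 3 body-wall muscle markers, and 0 markers of these 4 lists were called. The part of other cells in the age difference was not tested. With all 6 libraries, 19 of the 25 genes tested had an unadjusted p under 0.05 in the edgeR test, beside 2236 of all 7541. Such counts over all genes were not taken with a library left out. Leaving out D1 replicate 1, D7 replicate 2 or D7 replicate 3 left 0 of the 35 genes called in each case (23, 17 and 15 at an unadjusted p under 0.05), and 0, 0 and 3 of all genes tested, while leaving out D1 replicate 2, D1 replicate 3 or D7 replicate 1 gave 6, 3 and 5 calls, with 635, 9 and 198 of all genes tested called (8.41%, 0.118% and 2.51%).

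In *daf-2(rf)* none of the 35 genes was called between D7 and D1. Of 18 tested, 8 passed the filter on both days and 10 on D7 alone, and 0 were called by edgeR and 3 by DESeq2. By edgeR 7 had an unadjusted p under 0.05, beside 1630 of all 7337 genes tested. Among all 7337 genes edgeR called 0.218% and DESeq2 8.87%. For 7 genes every D7 library was above every D1 library (*car-1*, *cgh-1*, *gld-2*, *lin-41*, *mex-1*, *mex-3* and *nos-3*), and for none below, where 6.64% of all genes with reads were separated upward. On library totals without TMM, which add 1.11 here, 13 of the 35 were separated upward, beside 13.8% of all genes, and *gld-2* was no longer among them. Of 9 intestinal markers 7 were tested, 4 with a negative and 3 with a positive log2 fold change (median -0.28). The yolk protein genes *vit-2*, *vit-5* and *vit-6* among them were called lower on D7. The 9 intestinal markers summed to 468, 677 and 419 CPM on D1 and 57.7, 38.9 and 24.0 CPM on D7. *cgh-1*, from 33.4, 27.2 and 31.3 CPM on D1 to 50.8, 54.8 and 44.4 CPM on D7, had a log2 fold change of 0.75 (SE 0.26, adjusted p = 0.15). *car-1*, from 18.7, 9.82 and 15.2 to 24.6, 30.6 and 21.8 CPM, had one of 0.87 (SE 0.32, adjusted p = 0.164).

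For *mex-3* and *lin-41* the D7 mean in *daf-2(rf)* depended on 1 library. *mex-3* had 18, 8 and 21 reads on D1 and 74, 1160 and 96 on D7 in *daf-2(rf)*, or 2.14, 0.835 and 1.63 CPM and 6.46, 29.1 and 2.71 CPM. *lin-41* had 14, 12 and 20 reads and 57, 545 and 172 reads, or 1.67, 1.25 and 1.56 CPM and 4.98, 13.7 and 4.86 CPM. Replicate 2 on D7 was the highest library for both. The log2 fold changes were 3.13 (SE 0.85, adjusted p = 0.0994) and 2.45 (SE 0.52, adjusted p = 0.0647). Without replicate 2 they were 1.57 (adjusted p = 0.282) and 1.73 (adjusted p = 0.144) by the same edgeR test. *mex-1*, with 9, 1 and 2 reads on D1 and 30, 129 and 56 on D7, had a log2 fold change of 2.60 (SE 0.79, adjusted p = 0.118), and 2.32 (adjusted p = 0.294) without that replicate.

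The same library was low for most of the other genes. Replicate 2 of *daf-2(rf)* on D7 was the highest of its 3 libraries for 6 of the 35 genes and the lowest for 26. It had no reads for 11 genes, against 2 and 0 genes in replicates 1 and 3, with a count of 0 allowing up to 0.0753 CPM in this library. *deps-1* had 31, 0 and 61 reads in the 3 libraries, *gld-1* 14, 0 and 60, *glh-2* 15, 0 and 55, *puf-11* 24, 0 and 34 and *pgl-1* 21, 2 and 77. The P granule genes *glh-1* and *glh-4* kept reads there, with 72, 73 and 248 reads and 15, 14 and 35 reads. After TMM scaling replicate 2 was still the lowest library for both. *glh-1* was at 6.29, 1.83 and 7.01 CPM and *glh-4* at 1.31, 0.352 and 0.989 CPM. The library also had the highest TMM factor of the 12, 3.22. Its share of reads in the fixed set of 10 abundant genes was the lowest, 27.3%. The part of these features in the values was not tested. Without it, 19 of the 35 genes were higher on D7 than on D1 in every library of *daf-2(rf)*, beside 10.9% of all genes, and 13 were higher than in every double-mutant library on D7, beside 8.38%, while edgeR called 0 of the 35 in both comparisons, with 11 and 7 at an unadjusted p under 0.05. How many of all genes had such a p in these fits was not counted.

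**Figure D4:**
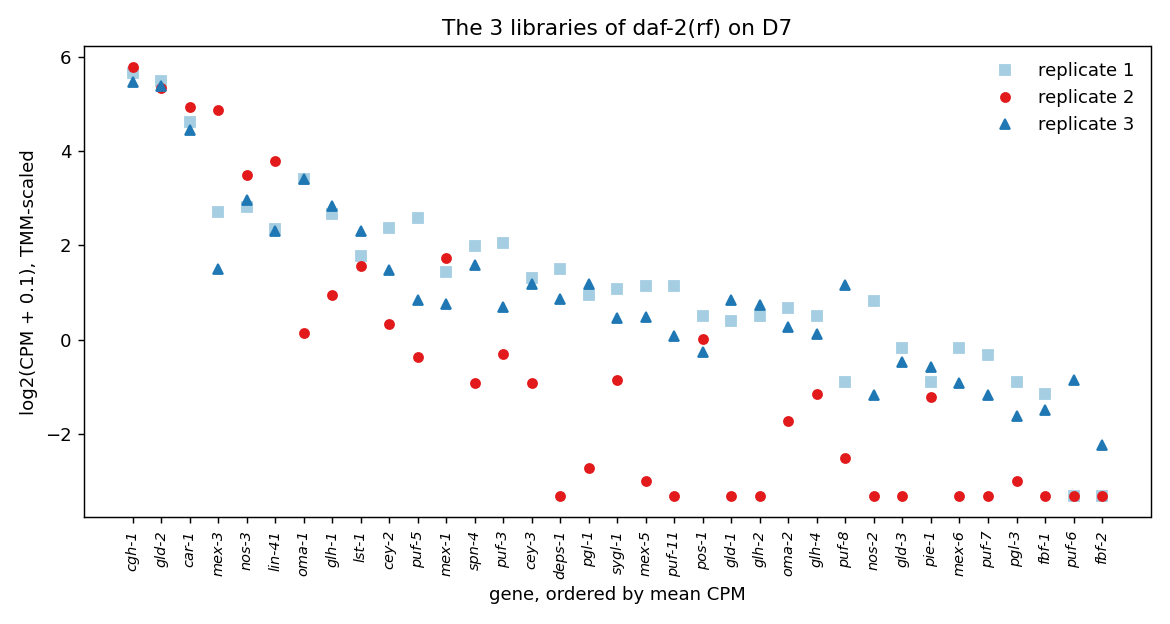
Level of the 35 genes, ordered by mean CPM, in the 3 libraries of *daf-2(rf)* on D7, as log2(CPM + 0.1) after TMM scaling (squares, circles and triangles for replicates 1, 2 and 3). The red circles of replicate 2 lie above both other replicates for *mex-3* (29.1 CPM) and *lin-41* (13.7 CPM), and lie at the bottom of the axis for the 11 genes without reads.

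Whether the difference between the genotypes changed from D1 to D7 was tested in all 12 libraries together. The test called 3 of the 35 genes, *cey-2*, *puf-3* and *cey-3*, all in the direction of a genotype difference (*daf-2(rf)* over the double mutant) that was higher on D7 than on D1, and 0.296% of the 8096 genes tested were called in that direction. No fold threshold was used here. Of the 35 genes 26 were tested. *cey-2* passed the filter in every group and *cey-3* in every group but *daf-2(rf)* on D1. *puf-3* passed only through the groups where it was higher, the double mutant on D1 and *daf-2(rf)* on D7. The change in the log2 difference was 5.17 (SE 0.74, adjusted p = 0.0426) for *cey-2*, 4.94 (SE 1.02, adjusted p = 0.0462) for *puf-3* and 4.41 (SE 0.91, adjusted p = 0.0462) for *cey-3*. For *cey-2* the mean of the double mutant was 25.0 CPM on D1 and 0.987 CPM on D7, while that of *daf-2(rf)* was 2.02 CPM on D1 and 2.97 CPM on D7. *puf-3* had means of 6.16 and 0.637 CPM in the double mutant and 0.605 and 2.08 CPM in *daf-2(rf)*. *cey-3* had means of 12.2 and 1.02 CPM against 0.879 and 1.65 CPM. Of the other tested genes *cgh-1* had a change of 1.56 (SE 0.38, adjusted p = 0.0669) and *puf-5* one of 3.64 (SE 0.97, adjusted p = 0.0776), and the 2 negative values were those of *gld-2* and *gld-3*. Leaving out 1 library at a time left 0 to 2 of the 35 genes called and 0 to 130 of all genes tested, and in 7 of these 12 fits 0, among them each fit without a *daf-2(rf)* library of D1.

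**Figure D5:**
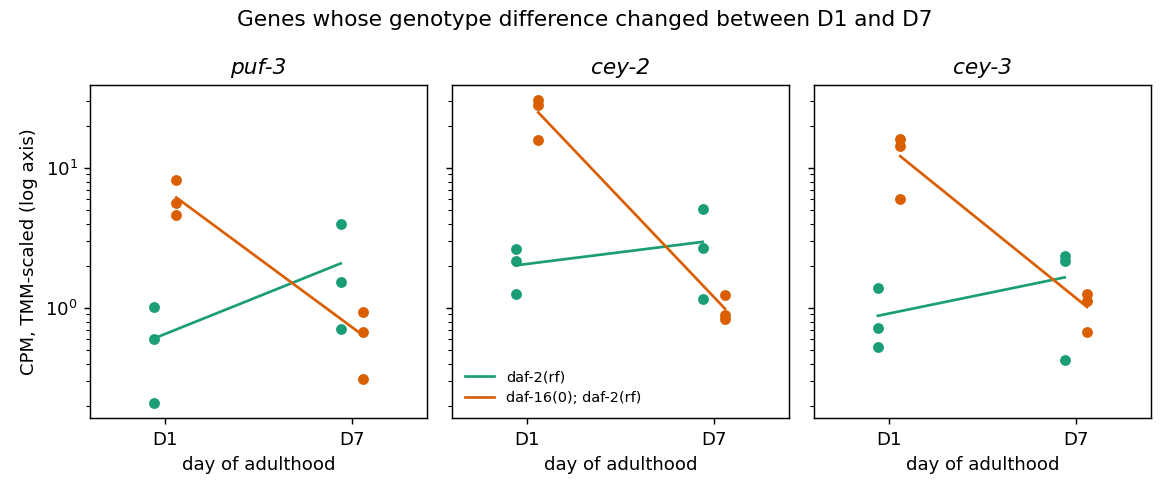
TMM-scaled CPM (log axis) of *puf-3*, *cey-2* and *cey-3* on D1 and D7, with 1 point per library and a line between the means of 3 libraries (green, *daf-2(rf)*; orange, double mutant). The orange lines fall from 6.16 to 0.637, 25.0 to 0.987 and 12.2 to 1.02 CPM and cross the green ones.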

How the data were processed

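RNA of FACS-isolated GFP+ PSG cells was amplified with a SMARTer kit and sequenced as 12 libraries. Per the labels and the study's methods, the authors aligned reads to WBcel235 with HISAT2 2.0.5, counted reads per gene with featureCounts 1.5.0-p3 and deposited the raw counts. FPKM values, also deposited by the authors, equal count, gene length and DESeq2 size factors combined, and were used to compare genes. Strand and multi-mapping settings are not given in the sources used here.

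Tests of the counts used edgeR 4.0.16 under R 4.3.3 (TMM, quasi-likelihood F test, Benjamini-Hochberg over all genes tested) in separate fits of 6 libraries, and in a fit of 12 for the difference of differences. Standard errors were worked back from each log2 fold change and its F statistic and are approximate. CPM used TMM over the 12 libraries. Limits from counts of 0 (up to 3 reads) cover counting error only. Alternatives were DESeq2 1.42.0, limma 3.58.1 on log2(FPKM + 1) and log2(FPKM + 0.1), other scalings and filters, and leaving out libraries. Checks of non-overlap under other scalings and with libraries left out were chosen after seeing the data. The steps were tested on simulated data, with changes planted only in genes of higher counts, so that test does not cover genes with few reads. The members and lists were chosen with earlier results of these data known. Every member is named. Values by library are given for genes called in any comparison, the 3 with the highest FPKM, and related pairs.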

Additional observations from a re-analysis of the deposited data

Results flagged for a closer look

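The genotype difference in log2 level changed between D1 and D7 for 3 genes by a test of that change in all 12 libraries (edgeR quasi-likelihood test, Benjamini-Hochberg adjustment). The change was 5.17 for *cey-2* (adjusted p = 0.0426), 4.94 for *puf-3* (adjusted p = 0.0462) and 4.41 for *cey-3* (adjusted p = 0.0462), each higher in *daf-2(rf)* relative to the double mutant on D7 than on D1. The call of *cey-2* remained in 5 of the 12 fits with a library left out, and those of *puf-3* and *cey-3* in 1 each.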

How the results depend on the processing

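The numbers below are counts of the 35 genes called, with the share of all genes tested that was called in the same setting in parentheses. On D1, the 13 genotype calls (3.51%) became 12 with DESeq2 size factors (3.42%) or upper-quartile scaling (3.62%), 13 with limma on log2(FPKM + 1) (5.18%), 14 with a replicate block (7.43%), 16 with the DESeq2 Wald test (11.8%), 19 with no filter on low counts (4.66%), 8 with limma on log2(FPKM + 0.1) (2.66%), 6 with all 12 libraries in 1 fit (4.31%) and 1 with more than 10 reads required in every library (1.79%), a filter that only 6 of the genes passed. Leaving out libraries gave 0 to 11 (0.0308% to 7.35%). All calls in these settings were lower in *daf-2(rf)*. On D7 the count of 0 (1.15%) became 1 with no filter (4.69%). That gene was *mex-3*, whose D7 level in *daf-2(rf)* was by far the highest in replicate 2. With age in *daf-2(rf)* the count of 0 (0.218%) became 3 with the DESeq2 Wald test (8.87%) and 3 with no filter (*lin-41*, *mex-1* and *mex-3*; 4.32%), and 0 to 1 with libraries left out (0% to 2.70%). With age in the double mutant the 5 calls (0.583%) became 16 with the DESeq2 Wald test (17.9%), 14 with no filter (6.69%), 1 with the strict filter (0.0497%), 3 with a replicate block (0.888%), 3 with limma on log2(FPKM + 0.1) (0.278%) and 8 with all libraries in 1 fit (13%), and 0 to 6 with libraries left out (0% to 8.41%). For the change of the genotype difference with day, the 3 calls (0.704%) became 13 with the DESeq2 Wald test (10.4%), 11 with no filter (3.06%), 5 with limma on log2(FPKM + 1) (1.79%), and 1 each with upper-quartile scaling (0.0124%), the strict filter (1.96%), the replicate block (0.210%) and limma on log2(FPKM + 0.1) (0.445%), and 0 to 2 with libraries left out (0% to 1.60%). Over the 21 calls of a gene in a comparison, no alternative changed a sign. With all libraries 165 of 192 repeats kept the call, against 45 of 144 with 1 left out. Repeats in which the strict filter removed the gene are not among the 192. The log2 fold change of *lin-41* on D1 turned from -0.88 to 0.10 with limma on log2(FPKM + 0.1), and ran from -1.25 to 0.0036 with libraries left out. That of *puf-5* with age in *daf-2(rf)* ran from -0.16 to 1.49. The cause of these changes was not tested.

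Libraries with the same replicate number deviated from their group means with a mean correlation of -0.027 over 18 pairs (-0.283 to 0.298). Over 36 pairs with different numbers the mean was 0.013 (-0.296 to 0.292). Deviations cancel out within a group, so both means are tied to each other. The check therefore cannot tell whether replicate numbers pair the samples, and the replicate block is given as an alternative only. The 14 of the 35 genes that did not pass the filter on D1 had too few reads to be tested.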
